A study of Mus musculus with 103 samples.

Results

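Laser-captured mouse embryo tissue was used to ask whether 4 libraries labelled as mandibular arch epidermal ectoderm at embryonic day E10.5 read as later jaw mesenchyme than the mandibular arch at E9.5. The question was asked because Hand2 was already known to be high, and epithelial genes low, in these 4 libraries. The members are set by their sample labels: the 4 libraries labelled mandibular arch epidermal ectoderm at E10.5 and the 5 labelled mandibular arch at E9.5, numbered 2 to 6, which makes 9 of the 103 samples of an atlas of early face development. All embryos were of the outbred CD1 strain, and the labels name no mutation and no treatment. Tissue was flash frozen, cryosectioned and captured with a laser, and its RNA was amplified and hybridised to whole-transcript Affymetrix arrays. The other groups used for comparison were E10.5 maxillary arch epidermal ectoderm (4 libraries), E9.5 epidermal ectoderm (7), E10.5 mandibular arch (4), E10.5 maxillary arch (5) and E9.5 maxillary arch (5). The labels do not tie libraries to embryos, so some may share an embryo, and every adjusted p below may then be too small. In all that follows "the E10.5 libraries" are the 4 labelled mandibular arch epidermal ectoderm. Their comparison with E9.5 mandibular arch is called the stage comparison. The compared groups differ in labelled tissue as well as in stage, so the parts of stage and tissue in any difference cannot be told apart.

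The mandibular arch is the first pharyngeal arch's lower part, from which the lower jaw forms. It has a core of mesenchyme, made largely by neural crest cells around a mesodermal core of future jaw muscle and blood vessels, and is covered by surface ectoderm outside and pharyngeal endoderm inside. Endothelin-1 from the epithelium and core acts on crest mesenchyme to switch on Dlx5 and Dlx6 and, through them, Hand2, which sets lower jaw identity. Barx1 and Prrx1 are homeobox genes of arch mesenchyme. Surface ectoderm is instead marked by epithelial adhesion molecules, claudins and keratins.

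Values are log2 of a ratio that the authors deposited for each probe set. The ratio equals 1, and its log2 equals 0, at the median of 1 set of 21 samples of the atlas, so a value compares a gene between libraries and says nothing of its level against another gene. A difference is the mean log2 ratio of the E10.5 libraries minus that of the other group, with its standard error (SE), and "adjusted p" is that of limma over 19938 genes with Benjamini-Hochberg adjustment. The SE rests on a spread pooled over all groups of 1 fit, and can be too small where 1 group spreads widely. A gene was called when its adjusted p was under 0.05.

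The markers went against the tissue label. Since that pattern prompted the question, the marker values against the ectoderm groups are a description, with no test. Hand2 was at 1.61, 2.77, 1.42 and 3.48 in E10.5 libraries 1 to 4, against -0.22 to 0.24 in the 4 E10.5 maxillary arch epidermal ectoderm libraries and, at the median of 7, 0.14 in E9.5 epidermal ectoderm (lowest -0.29, highest 0.27). All 4 E10.5 libraries lay above every library of both ectoderm groups. The difference was 2.28 ± 0.35 (SE) from E10.5 maxillary ectoderm and 2.26 ± 0.31 from E9.5 ectoderm. Barx1 was at 3.36, 5.31, 3.36 and 5.29 in the E10.5 libraries, against -0.05 to 2.28 in E10.5 maxillary ectoderm and -0.77 to 0.87 in E9.5 ectoderm. It was higher by 3.44 ± 0.53 and by 4.36 ± 0.47, with no overlap. Prrx1, at 1.89, 2.64, 1.94 and 3.58, was higher by 2.53 ± 0.56 and 2.48 ± 0.50.

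Epithelial genes were low in the same 4 libraries. Epcam, the epithelial cell adhesion molecule, was at 0.42, -0.94, 0.74 and -0.36 in the E10.5 libraries, against 3.08 to 4.12 in E10.5 maxillary ectoderm and 2.14 to 3.98 in E9.5 ectoderm. The differences were -3.47 ± 0.80 and -3.53 ± 0.71 on the log2 scale. Cldn7, a claudin of epithelial tight junctions, was at 0.01, -0.41, 0.07 and -0.43, against 3.78 to 5.57 in E10.5 maxillary ectoderm (-4.89 ± 0.98) and 3.73 to 5.70 in E9.5 ectoderm (-5.05 ± 0.87). Of 28 measured surface epithelium genes, 7 were called lower and none higher than in E10.5 maxillary ectoderm (0.632% of all genes were lower), and 8 were called lower and none higher than in E9.5 ectoderm (0.216% of all genes), and nothing is read from these counts. The mean of these 28 genes was -0.15 to 0.14 in the E10.5 libraries, against 1.12 to 1.71 in E10.5 maxillary ectoderm and 0.56 to 2.32 in E9.5 ectoderm. Genes of these kinds prompted the question, so their values are not independent evidence on the label. The 4 libraries are described here by Hand2, Barx1 and Prrx1, and whether they hold ectoderm was not tested.

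The libraries labelled E10.5 mandibular arch were low in Hand2 and Barx1, and overlapped the E10.5 libraries in Prrx1. Hand2 was at -0.51 to 0.14 in those 4 libraries (difference 2.52 ± 0.35), and Barx1 differed by 4.02 ± 0.53. Prrx1 was at 1.89 to 3.58 in the E10.5 libraries, against 0.52 to 3.54 in E10.5 mandibular arch, and did not pass (0.66, interval -0.46 to 1.77, adjusted p = 1.0 in limma). Dlx1 was higher by 2.23 ± 0.40 (adjusted p = 0.00057 in limma). Dlx6 was higher by 1.55 ± 0.36 (adjusted p = 0.037), but not without E10.5 library 1 (1.62, adjusted p = 0.083), 3 (1.54, adjusted p = 0.14) or 4 (1.29, adjusted p = 0.20), or without library 2 (1.44, adjusted p = 0.13) or 4 (1.46, adjusted p = 0.10) of the E10.5 mandibular arch. Alx1, a homeobox gene of frontonasal mesenchyme, was at -0.26, -0.26, -0.06 and 1.35 in the E10.5 libraries, against 5.12 to 5.71 in the libraries labelled E10.5 mandibular arch (-5.14 ± 0.61, adjusted p = 8.6e-09 in limma). Pax9, a paired box gene of arch and nasal mesenchyme, was lower by 1.65 there too (difference -1.65 ± 0.20, adjusted p = 8.6e-09 in limma). In that comparison 10 genes were higher (0.0502%) and 17 lower (0.0853%), 0.135% of all tested.

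**Figure D1:**
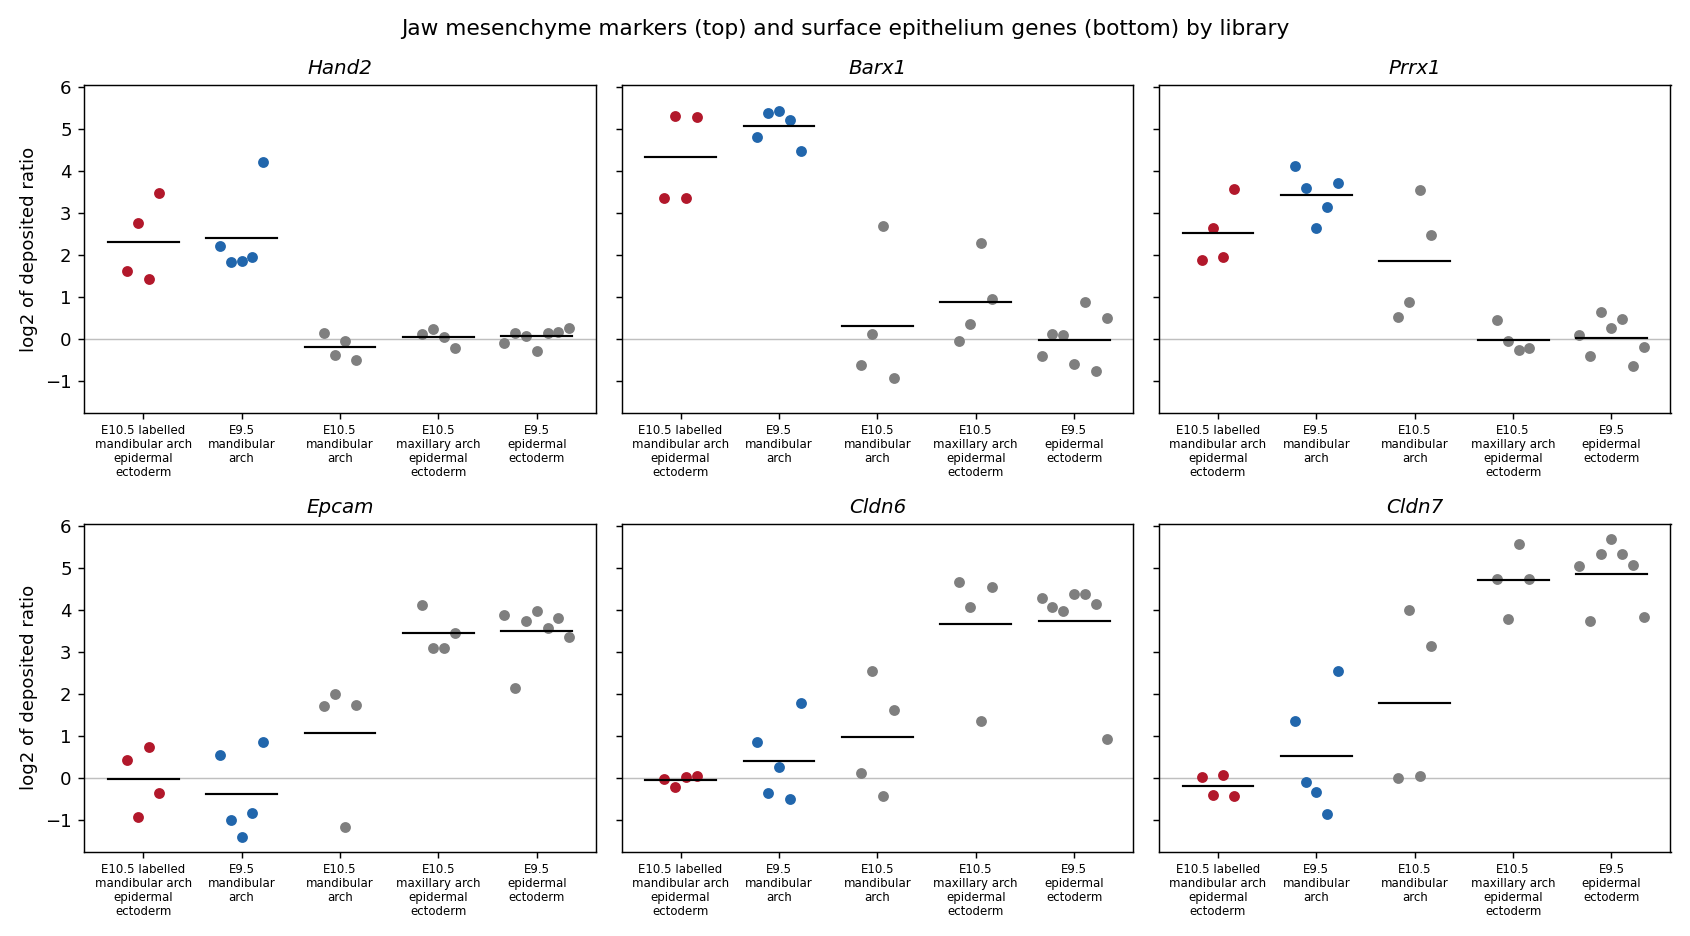
Each point is 1 library and each line a group mean, on the log2 scale of the deposited ratio, for Hand2, Barx1 and Prrx1 (top) and Epcam, Cldn6 and Cldn7 (bottom). The libraries labelled E10.5 mandibular arch epidermal ectoderm (red) and the E9.5 mandibular arch libraries (blue) are high in the top row, and the red points stay between -0.94 and 0.74 in the bottom row, under the lowest maxillary ectoderm point of each gene.

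Before the stage comparison, the libraries themselves are described. E10.5 libraries 1 and 3 were the most alike pair of the whole atlas, with a Pearson correlation of 0.947 across genes and an SD of their difference of 0.214, against 0.847 and 0.427 for the next pair. The other pairs of E10.5 libraries correlated at 0.387 to 0.58. Whether libraries 1 and 3 come from 1 capture was not tested, and counts are given also with their mean as 1 library and with both left out. The low tail of the arrays differed between the groups with no overlap: the 5th percentile of log2 ratios was -1.46, -0.87, -1.46 and -0.89 in E10.5 libraries 1 to 4, against -0.56, -0.38, -0.54, -0.48 and -0.30 in E9.5 libraries 2 to 6. Counts with this percentile added to the fit stand beside the results, as "with the low tail in the fit". Across genes, the E10.5 libraries correlated more with E10.5 medial nasal prominence (median r of 0.537 over 16 pairs) than with E9.5 mandibular arch (median -0.041 over 20 pairs, from -0.328 to 0.305). Groups labelled ectoderm were also above E9.5 mandibular arch, with a median r of 0.255 for E10.5 maxillary ectoderm and 0.221 for E9.5 epidermal ectoderm. It was 0.403 with E10.5 mandibular arch and 0.395 with E10.5 olfactory pit. These correlations are over 19938 genes that share arrays and baseline, and describe these libraries only.

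Within the E10.5 group, libraries 1 and 3 differed from libraries 2 and 4 in the genes below, and the values are given with no test because this split was seen in the data. Libraries 2 and 4 were less alike (r of 0.58, SD of their difference 0.572) than libraries 1 and 3 (0.947 and 0.214). They also differed from each other in other genes, Emcn and Papolb among them. Gsc, goosecoid, a homeobox gene needed for jaw bones, was at 5.36 and 5.60 in libraries 2 and 4 but 0.21 and -0.24 in libraries 1 and 3. Pitx1, a homeobox gene of oral epithelium and mandibular mesenchyme, was at 4.55 and 5.01 in libraries 2 and 4 but 1.17 and 1.05 in libraries 1 and 3. Lhx8, a LIM homeobox gene of oral jaw mesenchyme, was at 4.62 and 4.51 but 0.42 and 0.40. These 3 genes were higher in libraries 2 and 4, as was Hand2, while Dlx2 was higher in libraries 1 and 3 (1.43 and 1.48) than in libraries 2 and 4 (1.19 and 0.58). Gsc does not mark the lower jaw alone in this atlas: its highest group mean was 4.74 ± 0.84 (SD, n = 4) in E10.5 lateral nasal eminence. Krt8, a keratin of simple epithelia, ran the other way, at 0.35 and 0.33 in libraries 1 and 3 but -2.18 and -2.03 in libraries 2 and 4. Nkx2-5 and Foxe1, which mark pharyngeal endoderm among other tissues, were at 1.60 and 1.77 and at 1.44 and 1.24 in libraries 1 and 3, and did not exceed 0.30 and 0.18 in libraries 2 and 4.

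The microRNAs Mir451a and Mir144, which are made from 1 short cluster and are abundant in red blood cell precursors, followed the same split. Their mature sequences are shown because this pair was high in 2 of the 4 libraries and near 0 in the other two, and they share no seed. They are from RefSeq on GRCm38.p6, chromosome 11, plus strand, at chr11:78073186-78073207 for miR-451a and chr11:78073047-78073066 for miR-144-3p, with the seed (bases 2 to 8) in capitals.
miR-451a: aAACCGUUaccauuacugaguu
miR-144-3p: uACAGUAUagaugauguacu
Mir451a was at 0.21, 4.08, 0.07 and 3.67 in E10.5 libraries 1 to 4, against 0.43, -0.17, -0.19, -0.17 and -0.03 in E9.5 libraries 2 to 6. Mir144 was at -0.24, 4.12, -0.23 and 3.01, against -0.13 to 0.20 in E9.5 libraries. Both were high in libraries 2 and 4 and at the E9.5 level in libraries 1 and 3, and both passed the test against E9.5 (2.03 ± 0.58, adjusted p = 0.012, and 1.67 ± 0.62, adjusted p = 0.0495, in limma). With only the 2 compared groups in the fit neither passed (adjusted p = 0.14 and 0.21 in limma). Mir451a did not pass without E10.5 library 2 (1.34, adjusted p = 0.11) or 4 (1.48, adjusted p = 0.079). Mir144 did not pass without either of those (0.85, adjusted p = 0.36, and 1.22, adjusted p = 0.18), without any one E9.5 library (adjusted p = 0.063 to 0.092), or with the low tail in the fit (1.61, adjusted p = 0.12). The array probes the precursor transcripts, so these values are not levels of the mature forms. Erythroid messenger RNAs did not split: the mean of 8 measured genes was 0.55 to 0.57 in the E10.5 libraries, against 0.32 to 1.03 in E9.5 libraries.

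**Figure D2:**
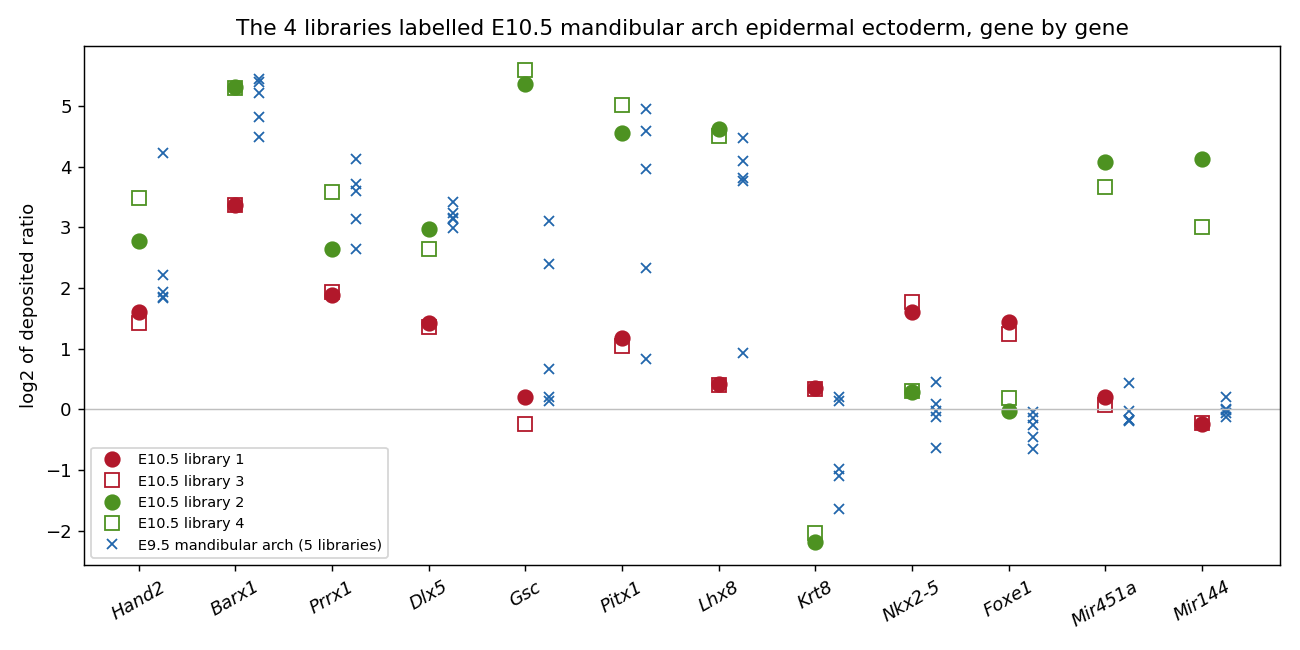
Each symbol is 1 library's log2 of the deposited ratio for the gene on the horizontal axis; red are E10.5 libraries 1 and 3, green are E10.5 libraries 2 and 4, and blue crosses are the 5 E9.5 mandibular arch libraries. Red symbols lie close together, and green symbols are spread in some genes, as for Mir144 (4.12 and 3.01). For Gsc the green symbols are at 5.36 and 5.60 and the red ones at 0.21 and -0.24.

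Against the E9.5 mandibular arch, no difference passed in the 3 markers, but the 4 E10.5 libraries were not alike. Libraries 1 and 3 lay below every E9.5 library in all 3 markers. Library 4 lay inside the E9.5 range in each, and library 2 in Hand2 and Barx1 but just below it in Prrx1. Hand2 was at 1.61, 2.77, 1.42 and 3.48 in the E10.5 libraries, against 2.22, 1.84, 1.85, 1.94 and 4.22 in E9.5 libraries 2 to 6. The ranges overlap, and the difference was -0.10 (95% interval -0.76 to 0.57, adjusted p = 0.87 in limma). High Hand2 in the E10.5 libraries prompted the question, so tests of Hand2 are not independent evidence of likeness to the E9.5 arch. Barx1 was at 3.36, 5.31, 3.36 and 5.29, against 4.81, 5.39, 5.44, 5.22 and 4.49 (-0.74, interval -1.74 to 0.26, adjusted p = 0.30). Prrx1 was at 1.89, 2.64, 1.94 and 3.58, against 4.12, 3.59, 2.65, 3.14 and 3.71 (-0.93, interval -1.99 to 0.13, adjusted p = 0.21). None of the 3 passed after quantile normalization, with the low tail in the fit, or with libraries 1 and 3 averaged or left out. In these settings, in that order, the Hand2 difference was 0.65, -0.17, 0.17 and 0.71, so its sign was not stable. That of Barx1 was -0.71, -0.81, -0.42 and 0.23, and that of Prrx1 was negative in each. With array weights, which give less weight to arrays far from the fit, all 3 passed as lower: Hand2 at -0.82 (adjusted p = 0.041), Barx1 at -1.07 (adjusted p = 0.024) and Prrx1 at -1.22 (adjusted p = 0.027).

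In the same comparison 962 genes were higher (4.82%) and 2521 lower (12.6%), or 17.5% of 19938 genes. The libraries of the 2 groups did not overlap for 20.3% of genes, 5.84% higher and 14.5% lower. After quantile normalization the split turned, with 1996 higher and 1281 lower, as the median difference of all genes moved to 0.063 from -0.073. With the low tail in the fit 204 genes were higher (1.02%) and 777 lower (3.9%), and 948 of these 981 were among the 3483, all in the same direction. With the mean of libraries 1 and 3 as 1 library the counts were 258 and 1067, and with both left out 141 and 188. Leaving out E9.5 library 2 gave 288 higher and 889 lower, E9.5 library 5 gave 495 and 1337, E10.5 library 1 gave 291 and 1078, and E10.5 library 3 gave 268 and 1115. Of the 88 named genes that were called, 39 also passed when each of the 9 libraries was left out in turn, and for the genes described below the calls lost in this way are given beside them. With libraries 1 and 3 both left out 23 of the 88 passed. Of the genes described below these were Bgn, C1qtnf4, Cnn3, Des, Dlx3, Eng, Esam, Mcm3, Msc, Naprt, Pax9, Pecam1, Pkm, Plcb3, Shisal2a and Vps35. With the low tail in the fit the calls of Des, Dusp6, Emcn, Eya1, Foxe1, Igf2bp1, Igf2bp3, Jup, Meis2, Pax1, Pax7, Plcb3, Runx3, Shh, Snai2, Snorc, Sox18 and Wnt3 were lost, and after quantile normalization those of Des, Dlx3, Dlx4, Eya1, Jup, Plcb3 and Snai2. A fit of only the 2 compared groups lost the calls of Des, Dlx3, Dlx4, Foxe1, Nkx2-5, Pax1, Pax7 and Plcb3. Those of Runx3, Shh, Smo, Snorc, Sox18 and Vegfa were lost there as well.

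Among 19 measured genes of the endothelin, Dlx and Hand axis, 1 rose and 3 fell, against 4.82% and 12.6% of all genes, and the median difference was -0.22 (-0.07 over all genes). Dlx2, which acts with Dlx1 in both jaws, rose: it was at 1.43, 1.19, 1.48 and 0.58 in the E10.5 libraries, against 0.02, 0.02, 0.23, 0.30 and 0.30 in E9.5 libraries. The groups did not overlap (0.99 ± 0.22, adjusted p = 0.0018 in limma), and the call was lost with libraries 1 and 3 both left out (0.71, adjusted p = 0.16). Dlx4 was at -0.05, 0.00, -0.21 and 0.22, against 1.64, 0.42, 0.15, 1.28 and 0.31, and fell by 0.77 on the log2 scale (adjusted p = 0.0015 in limma), with E10.5 library 4 above E9.5 library 4. Quantile normalization ended that call (-0.35, adjusted p = 0.32). Dlx3, which marks the most distal arch together with Dlx4, fell by 1.04 (adjusted p = 0.021) but not without E9.5 library 2 (-0.80, adjusted p = 0.12), E9.5 library 5 (-0.90, adjusted p = 0.074), or E10.5 library 2 (-0.89, adjusted p = 0.069) or 4 (-0.86, adjusted p = 0.072). Dlx5 was lower in every E10.5 library, at 1.42, 2.98, 1.36 and 2.65 against 2.99 to 3.42, and did not pass (-1.08, interval -2.78 to 0.61, adjusted p = 0.38). Dlx6 did not pass either (-0.25, interval -0.93 to 0.42, adjusted p = 0.63). Plcb3, a phospholipase of the endothelin receptor's signal, fell by 0.75 (adjusted p = 0.022), but not without E9.5 library 2 (-0.58, adjusted p = 0.13) or E10.5 library 2 (-0.68, adjusted p = 0.059) or 4 (-0.64, adjusted p = 0.068).

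Of 28 arch mesenchyme regulators, 1 rose and 2 fell. Pax9, needed for teeth and jaw skeleton, rose: it was at 0.58, 1.12, 0.78 and 0.66 in E10.5 libraries, against -0.31, -0.05, 0.02, -0.15 and 0.04 in E9.5 libraries. The groups did not overlap (0.88 ± 0.19, adjusted p = 0.0016 in limma), and the call held with quantile normalization (1.23, adjusted p = 2.1e-05), with the low tail in the fit (0.73, adjusted p = 0.0097) and with libraries 1 and 3 left out (0.98, adjusted p = 0.014). Meis2, a homeobox cofactor, was at -0.40, -0.83, -0.77 and 0.78, against 3.46, 1.59, 1.55, 3.21 and 2.16, and was 6.48-fold lower (-2.70 ± 0.73, adjusted p = 0.0088). It did not pass with the low tail in the fit (adjusted p = 0.062). Eya1, a transcriptional cofactor, fell by 1.33 (adjusted p = 0.021) and lost its call without E9.5 library 2 (-1.27, adjusted p = 0.064) or 5 (-1.16, adjusted p = 0.073), E10.5 library 1 (-1.28, adjusted p = 0.066) or 3 (-1.33, adjusted p = 0.057). Twist1, a crest transcription factor, was at 1.76, 2.65, 1.87 and 2.66 against 2.16 to 2.82 (-0.28, interval -1.61 to 1.05, adjusted p = 0.80). Snai2, which marks migrating crest and mesenchyme, was at 0.78, 0.49, 0.87 and 0.45, against 2.61, 2.53, 2.48, 2.15 and 2.18, and was 3.34-fold lower with no overlap (-1.74 ± 0.58, adjusted p = 0.028). Its call was lost without E9.5 library 2 (-1.69, adjusted p = 0.077) or any one E10.5 library (-1.81 to -1.68, adjusted p = 0.052 to 0.065). Snai2 comes from a separate list of 14 neural crest regulators, of which 1 fell and 1 rose, with a median difference of -0.11. The one that rose was Pax7, by 0.44, but not without E9.5 library 2, 5 or 6 or E10.5 library 1 or 3 (highest adjusted p = 0.23). Over all genes, 12.6% fell and 4.82% rose.

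Skeletal genes were called in both directions. Of 18 cartilage and bone genes 2 rose and 1 fell, against 4.82% and 12.6% of all genes, and none rose without E10.5 library 1. Col9a1, a cartilage collagen, was at 0.29, 0.49, 0.09 and 1.50 in E10.5 libraries, against 2.68, 1.91, 1.88, 2.58 and 2.68 in E9.5 libraries, and was 3.38-fold lower with no overlap (-1.75 ± 0.34, adjusted p = 0.00081 in limma). Sox9, the master regulator of cartilage, was at 0.00, -0.11, 0.05 and -0.39, against 1.32, 0.86, 0.95, 0.19 and 0.35. All E10.5 values lay below all E9.5 values, and the difference did not pass (-0.85, interval -1.51 to -0.18, adjusted p = 0.065). Snorc, a cartilage proteoglycan, rose by 0.63 (adjusted p = 0.039) but not without E9.5 library 2, 5 or 6 or E10.5 library 1 or 4 (highest adjusted p = 0.21). Runx3 rose by 0.64 (adjusted p = 0.012) but not without E10.5 library 1 or 3 (highest adjusted p = 0.084). Of 29 matrix genes 2 rose and 6 fell, and 1 fell without E9.5 library 2 or without E10.5 library 3. Bgn, the small proteoglycan biglycan, was at 0.51, 0.08, 0.40 and 0.26, against 3.65, 1.43, 1.16, 2.46 and 2.56, and was 3.84-fold lower with no overlap (-1.94 ± 0.42, adjusted p = 0.0017). With the low tail in the fit 1 of these 29 fell and none rose.

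Of 13 arch muscle genes 1 rose and 2 fell, against 4.82% and 12.6% of all genes. Msc, musculin, a transcription factor of first arch muscle precursors, was at 0.44, 0.00, 0.65 and 0.02 in the E10.5 libraries, against 1.75, 1.48, 1.64, 2.87 and 2.01 in E9.5 libraries. It was 3.19-fold lower with no overlap (-1.67 ± 0.27, adjusted p = 0.00014 in limma), and passed with the low tail in the fit (-1.68, adjusted p = 0.00026) and with libraries 1 and 3 left out (-1.94, adjusted p = 0.00018). Des, the muscle filament desmin, fell by 1.43 (adjusted p = 0.015), but not without E10.5 library 2 (-1.07, adjusted p = 0.087) or E9.5 library 5 (-1.28, adjusted p = 0.054). Myf5, an early muscle regulator, was at 0.01 to 0.24 against -0.01 to 0.20, near the atlas median in both groups. In a captured region, fewer cells of a type and less RNA per cell cannot be told apart.

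Blood vessel genes were lower in the E10.5 libraries. Of 14 endothelial genes 8 fell and 1 rose, Sox18, against 12.6% and 4.82% of all genes. The counts were 6 and 0 with the low tail in the fit, 4 and 1 after quantile normalization, 7 and 0 with libraries 1 and 3 as 1 library, and 3 and 0 with both left out. With only the 2 compared groups in the fit they were 5 and 0. Without E9.5 library 2 the counts were 5 and 0. Sox18, an endothelial transcription factor, rose by 0.77 (adjusted p = 0.013 in limma), but not without E9.5 library 2 (0.71, adjusted p = 0.053) or E10.5 library 1 (0.59, adjusted p = 0.10) or 3 (0.65, adjusted p = 0.079). Pecam1, the endothelial adhesion molecule CD31, was at 0.15, 0.03, -0.03 and 0.04 in the E10.5 libraries, against 2.33, 1.30, 0.90, 2.86 and 2.65 in E9.5 libraries. The E10.5 values sit at the atlas median and below every E9.5 value (-1.96 ± 0.44, 3.89-fold, adjusted p = 0.0022 in limma). Esam, an endothelial junction molecule, was at -0.15 to -0.09 in all 4, against 2.57, 1.03, 1.59, 2.61 and 2.79, and was 4.72-fold lower (-2.24 ± 0.41, adjusted p = 0.0005). Eng, endoglin, was at 0.39, 0.67, 0.17 and 0.28, against 2.31, 2.07, 1.43, 2.53 and 2.09 (-1.71 ± 0.32, adjusted p = 0.0005). Emcn, endomucin, spread widely among the E10.5 libraries, at 1.14, 0.00, 1.77 and 3.69, against 4.52 to 5.42 in E9.5 libraries (-3.36 ± 0.96, adjusted p = 0.012). It did not pass with the low tail in the fit (-2.68, adjusted p = 0.072) or with libraries 1 and 3 left out (-3.17, adjusted p = 0.16). Cldn5, a claudin of vessel walls, did not follow: it was at 1.55, 1.71, 1.51 and 2.76 against 1.98 to 2.83 (-0.63, adjusted p = 0.47). The mean of the 14 genes was 0.40 to 0.64 in the E10.5 libraries, against 1.10 to 1.58 in E9.5 libraries, and their median difference was -0.58.

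**Figure D3:**
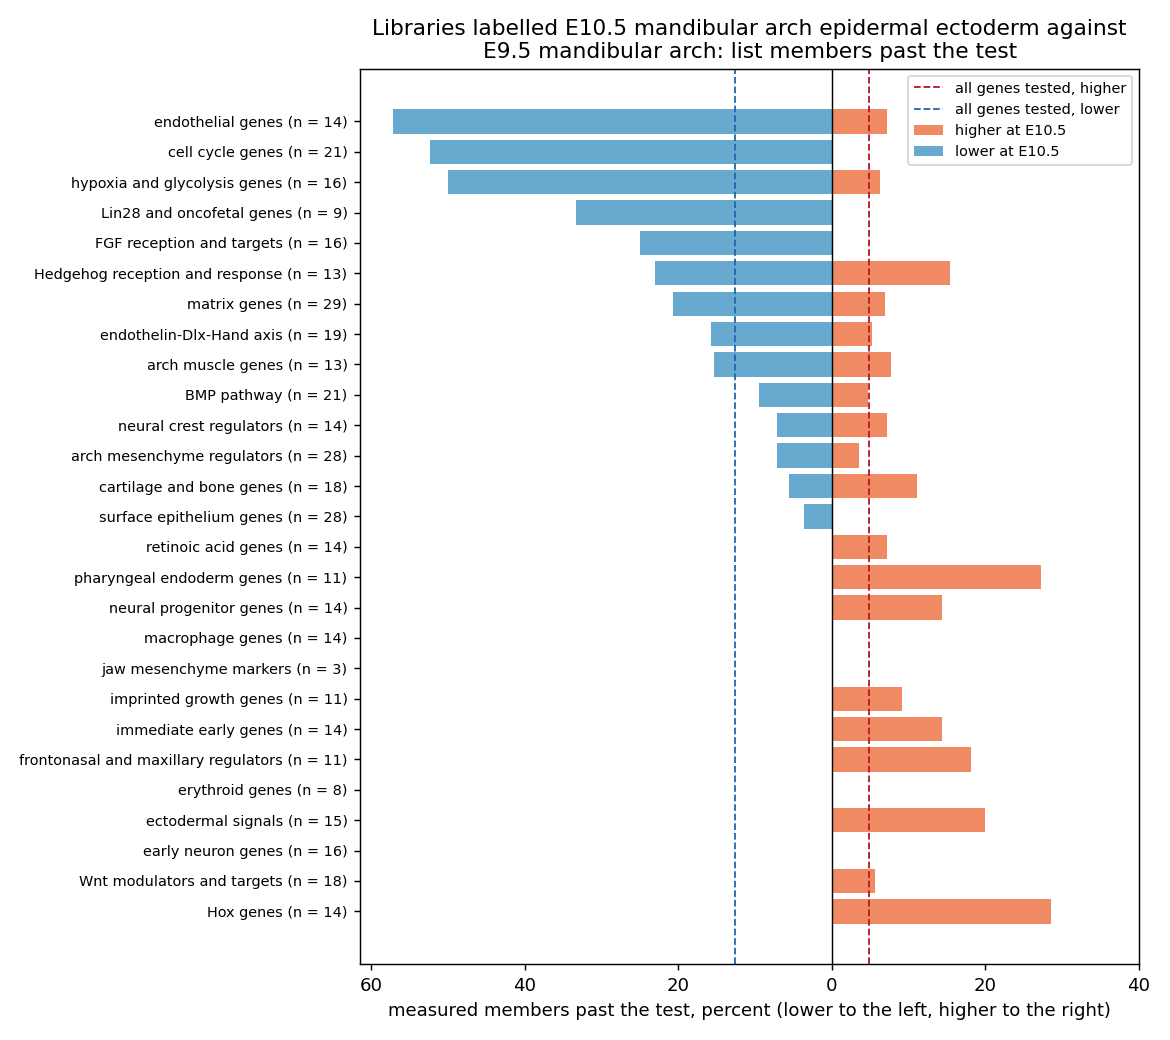
Bars give the share of each list's measured members past the test, in percent. Those higher in the E10.5 libraries are to the right and those lower to the left. Dashed lines give the same shares over all 19938 genes, 4.82% higher and 12.6% lower. Endothelial, cell cycle and glycolysis lists reach farthest to the left, and Hox and pharyngeal endoderm lists farthest to the right.

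Cell division genes were lower in the E10.5 libraries. Of 21 measured cell cycle genes 11 fell and none rose, with a median difference of -1.46, against -0.07 over all genes and 12.6% of genes that fell. With the low tail in the fit 7 fell (3.9% of all genes), after quantile normalization 13, with libraries 1 and 3 as 1 library 7, and with both left out 1. Leaving out each library in turn gave 7 to 11. Mcm3, a subunit of the helicase that opens DNA for replication, was at -1.47, -0.88, -1.44 and -0.95 in the E10.5 libraries, against 2.44, 0.75, 0.62, 2.26 and 1.19 in E9.5 libraries. The groups did not overlap, and Mcm3 was 6.23-fold lower (-2.64 ± 0.47, adjusted p = 0.00035 in limma). Mcm2 was at -1.43, -0.56, -1.48 and -0.80, against 2.68, 0.63, 0.93, 2.67 and 1.41 (-2.73 ± 0.57, adjusted p = 0.0015). Mcm6 was at -3.52, -1.54, -2.69 and -1.52, against 1.72, 0.12, 0.22, 1.88 and 0.80 (-3.27 ± 0.77, adjusted p = 0.003). Ccne1, the cyclin that brings cells into DNA synthesis, was at -1.26, -0.48, -1.08 and -1.51, against 1.94, 1.13, 0.56, 2.19 and 1.57 (-2.56 ± 0.61, adjusted p = 0.0034). E9.5 libraries 2 and 5 were the highest of their group for all 4 genes, and the SD of log2 ratios over their arrays, 0.749 and 0.649, was also the largest of that group.

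The proliferation genes did not all move. Mki67, the marker Ki-67, was at -0.12, 0.00, -0.19 and -0.03 in the E10.5 libraries, against 0.47, -0.03, 0.25, -0.04 and 0.21 in E9.5 libraries (-0.26, interval -0.74 to 0.23, adjusted p = 0.48 in limma). Top2a, the DNA-untangling enzyme of dividing cells, has 2 probe sets that disagree. The difference of the E10.5 libraries from E9.5 mandibular arch was 0.24 in the one used and -1.66 in the other.

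The promoters of the 3 MCM genes above are shown because replication genes are well known targets of E2F factors. They are the 300 bases around each start, most of them upstream, from RefSeq on GRCm38.p6, written 5′ to 3′ on the gene's own strand, which is the minus strand for all 3. Capitals mark matches, on either strand, to TTTCCCGC, TTTGGCGC, TTTCGCGC or TTTGCCGC. Mcm3 lies at chr1:20820263-20820562, Mcm6 at chr1:128359656-128359955 and Mcm2 at chr6:88898731-88899030.
Mcm3: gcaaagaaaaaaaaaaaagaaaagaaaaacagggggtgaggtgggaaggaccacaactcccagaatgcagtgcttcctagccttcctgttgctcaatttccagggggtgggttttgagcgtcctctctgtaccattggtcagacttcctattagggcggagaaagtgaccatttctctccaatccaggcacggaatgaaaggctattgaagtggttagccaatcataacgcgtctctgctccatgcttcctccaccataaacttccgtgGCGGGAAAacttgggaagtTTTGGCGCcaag
Mcm6: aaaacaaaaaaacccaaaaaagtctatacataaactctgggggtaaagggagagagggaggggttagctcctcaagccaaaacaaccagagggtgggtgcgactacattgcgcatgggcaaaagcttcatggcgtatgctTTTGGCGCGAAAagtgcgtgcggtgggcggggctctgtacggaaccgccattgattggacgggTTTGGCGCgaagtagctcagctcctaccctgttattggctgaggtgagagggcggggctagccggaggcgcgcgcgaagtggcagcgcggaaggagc
Mcm2: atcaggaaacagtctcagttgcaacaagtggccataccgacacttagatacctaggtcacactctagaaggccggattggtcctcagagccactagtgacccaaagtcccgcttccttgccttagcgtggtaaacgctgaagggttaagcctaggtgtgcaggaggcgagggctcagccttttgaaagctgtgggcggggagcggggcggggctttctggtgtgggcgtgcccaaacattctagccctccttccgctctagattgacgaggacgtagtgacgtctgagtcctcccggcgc
Mcm6 holds 3 matches, of which the first pair overlap on opposite strands, Mcm3 holds 2 and Mcm2 none. Of the 11 cell cycle genes that fell, 9 had a promoter in the table and 3 of these held a match, against 626 of 27025 promoters (2.32%). Over all 17 cell cycle genes with a listed promoter, 4 held a match, the other one being Cdk1, which did not fall. A match is a run of letters, not a bound site, and Mcm2 fell with none in this window.

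Lin28b, an RNA-binding protein that holds back let-7 maturation and is turned down as embryos age, was lower in every E10.5 library. It was at -0.34, -0.46, -0.51 and -0.55 in the E10.5 libraries, against 2.30, 1.32, 1.13, 2.27 and 1.76 in E9.5 libraries, 4.66-fold lower with no overlap (-2.22 ± 0.54, adjusted p = 0.0043 in limma). It passed with the low tail in the fit (-1.98, adjusted p = 0.023) and after quantile normalization (-1.79, adjusted p = 0.01), and not with libraries 1 and 3 left out (-2.26, adjusted p = 0.065). Igf2bp3, an oncofetal RNA-binding protein, was at -0.92, -1.65, -0.99 and -1.18, against 1.13, 0.29, 0.22, 0.62 and 0.41 (-1.72 ± 0.48, adjusted p = 0.01), and did not pass with the low tail in the fit (-0.997, adjusted p = 0.064) or with libraries 1 and 3 left out (-1.95, adjusted p = 0.069). Igf2bp1 fell by 1.84 (adjusted p = 0.027) but not without E9.5 library 2 or 5 or E10.5 library 1, 3 or 4 (highest adjusted p = 0.13). Of 9 measured genes of this list 3 fell and none rose, against 12.6% and 4.82% of all genes. Hmga2, a target of let-7, did not pass (0.10, interval -0.47 to 0.67, adjusted p = 0.83). None of 9 measured let-7 precursors was called, with differences from -0.17 to 0.35 in limma.

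**Figure D4:**
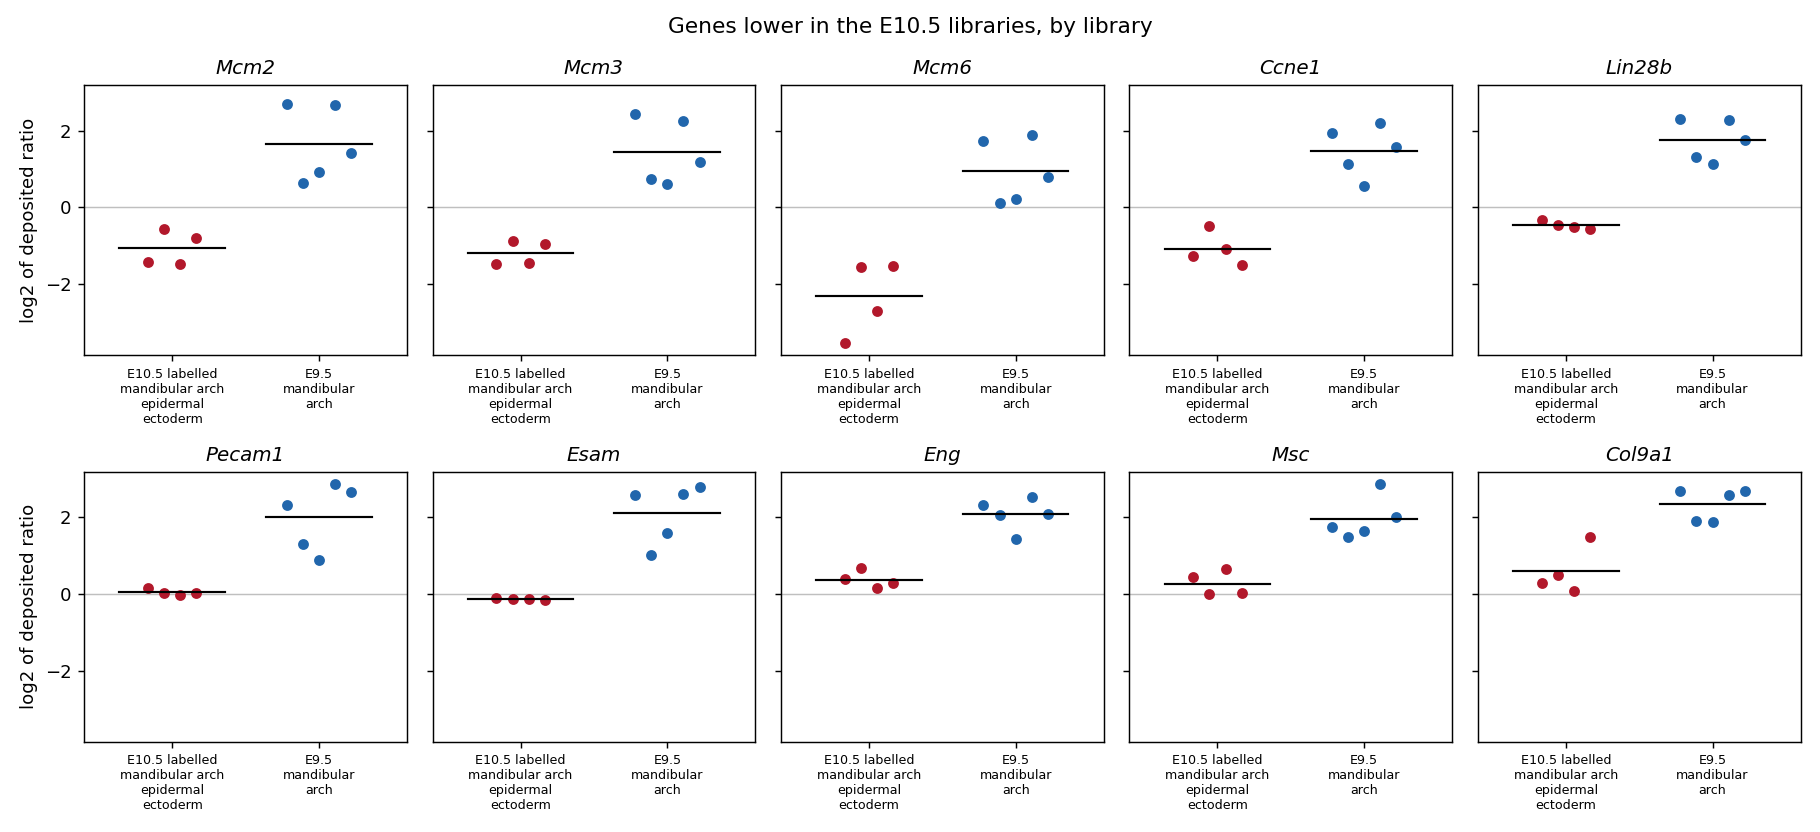
Each point is 1 library and each line a group mean, on the log2 scale of the deposited ratio, for 10 genes lower in the libraries labelled E10.5 mandibular arch epidermal ectoderm (red, left) than in the E9.5 mandibular arch libraries (blue, right). In each panel every red point lies under every blue point.

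Glycolysis enzymes were lower, with 8 of 16 measured genes of the hypoxia and glycolysis list lower and 1 higher, against 12.6% and 4.82% of all genes. The counts were 4 and 1 with the low tail in the fit, 6 and 1 after quantile normalization, 5 and 0 with libraries 1 and 3 as 1 library and 2 and 0 with both left out. Leaving out each library in turn gave 3 to 9 lower, with 3 without E9.5 library 2. Pkm, pyruvate kinase, was at -1.90, -2.37, -2.13 and -1.84 in the E10.5 libraries, against 1.61, -0.34, 0.42, 0.94 and 0.55 in E9.5 libraries, 6.49-fold lower (-2.70 ± 0.50, adjusted p = 0.0005 in limma). Ldha, lactate dehydrogenase A, was at -0.98, -1.44, -0.94 and -0.91, against 0.73, 0.23, 0.18, 0.49 and 0.35 (-1.47 ± 0.38, adjusted p = 0.0064). The member that rose was Vegfa, the vessel growth factor, at 1.06, 0.05, 0.92 and 0.18 against -0.54, 0.10, 0.08, -0.29 and -0.19 (0.72 ± 0.19, adjusted p = 0.0081), with E10.5 library 2 inside the E9.5 range. Vegfa did not pass without E10.5 library 1 (0.55, adjusted p = 0.079) or 3 (0.60, adjusted p = 0.061).

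The genes with the largest falls among those with no overlap are expressed in most cell types. Cnn3, an actin-binding calponin, was at -2.70, -1.04, -3.70 and -3.96 in the E10.5 libraries, against 1.86, 0.32, 0.75, 1.71 and 1.41 in E9.5 libraries, 16.7-fold lower (-4.06 ± 0.84, adjusted p = 0.0013 in limma). Ywhae and Ywhah, 14-3-3 adaptor proteins, were 16.5-fold and 16.1-fold lower. Ppp6c, a protein phosphatase, Got1, an amino acid transaminase, Hnrnpm, an RNA-binding protein, and Vdac1, the mitochondrial outer membrane channel, followed at 15.3-fold to 15.9-fold lower. These 6 calls were lost with libraries 1 and 3 both left out (adjusted p = 0.056 to 0.16). Vps35, of the retromer that sorts endosomes, was at -3.28, -3.17, -3.37 and -3.05, against 1.98, -0.44, -0.64, 1.73 and 0.49 (-3.84 ± 0.68, adjusted p = 0.00035). In the E10.5 libraries the Vps35 values lie below the 5th percentile of each array, which was -1.46 to -0.87.

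Among the genes higher with no overlap, Shisal2a was at 1.86, 3.90, 2.10 and 4.34 in the E10.5 libraries, against 0.30, 1.44, 0.93, -0.29 and 1.42 in E9.5 libraries, 4.90-fold higher with no overlap (2.29 ± 0.52, adjusted p = 0.0023 in limma). C1qtnf4, a secreted C1q family protein, was at 1.42, 2.08, 1.31 and 2.18, against -1.40, -0.63, -0.12, -0.75 and 0.51 (2.23 ± 0.48, adjusted p = 0.0016). Marcksl1, an actin and membrane regulator, was 3.56-fold higher (adjusted p = 0.0015), and Naprt, of NAD synthesis, 2.94-fold (adjusted p = 0.0044). Ackr3, a scavenger receptor for the chemokine Cxcl12, was 2.71-fold higher (adjusted p = 0.017) but not without E9.5 library 2 (1.39, adjusted p = 0.053), E10.5 library 1 (1.30, adjusted p = 0.071) or 3 (1.35, adjusted p = 0.061).

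The signalling lists are set against the 12.6% of all genes that fell and the 4.82% that rose. In the FGF list 4 of 16 fell and none rose, and none fell with the low tail in the fit or without E9.5 library 2. Dusp6, a phosphatase made in response to FGF, was at -0.27, -0.31, -0.38 and 0.61 in the E10.5 libraries, against 3.04, 0.92, 1.12, 2.73 and 1.10 in E9.5 libraries, 3.66-fold lower (-1.87 ± 0.50, adjusted p = 0.0077 in limma), and without E9.5 library 2 it was at -1.56 (adjusted p = 0.054). In the Hedgehog list Smo, the pathway's transducer, fell by 2.25 (adjusted p = 0.0074), with E10.5 library 4 at 0.04 inside the E9.5 range and a value of -1.88 without E9.5 library 2 (adjusted p = 0.051). Of 13 members 5 were called, 2 higher and 3 lower, and without E9.5 library 2 none was called. The target Gli1 did not pass (0.18, interval -0.10 to 0.47, adjusted p = 0.37). In the BMP list 1 of 21 rose and 2 fell, and none fell without E9.5 library 2 or 6 or E10.5 library 1 or 3. Smad6, an inhibitor made in response to BMP, rose by 0.90 (adjusted p = 0.0038), or 0.68 without E10.5 library 3 (adjusted p = 0.053). The Wnt list had 1 of 18 higher and the retinoic acid list 1 of 14, and both counts were 0 without E9.5 library 2 or 5 or E10.5 library 1 or 3.

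Some genes of ectodermal signalling and of pharyngeal endoderm, and some Hox genes, were higher in the E10.5 libraries. Of 15 ectodermal signals 3 rose (Shh, Wnt3 and Wnt10b) and none fell, of 11 pharyngeal endoderm genes 3 rose (Foxe1, Nkx2-5 and Pax1) and none fell, and of 14 Hox genes 4 rose and none fell, against 4.82% of all genes that rose. With libraries 1 and 3 as 1 library these counts were 1, 1 and 2, with both left out 0, 0 and 0, and with the low tail in the fit 1 each. Without E10.5 library 1 no ectodermal signal and 1 Hox gene rose, and without E10.5 library 3 no pharyngeal endoderm gene did. Shh was not called without E9.5 library 2, 3 or 5 or E10.5 library 1 or 3 (highest adjusted p = 0.17), nor Pax1 without the same 5 (0.28), nor Wnt3 without 7 of the 9 libraries (0.13). Foxe1 was not called without E10.5 library 1 or 3 (highest adjusted p = 0.082), and Nkx2-5 not without library 3 (adjusted p = 0.055). Wnt10b was at 0.78, 0.14, 0.53 and 0.09 in the E10.5 libraries, against -0.37, -0.23, -0.10, -0.19 and -0.22 in E9.5 libraries (0.60 ± 0.15, adjusted p = 0.0056 in limma), or 0.47 without E10.5 library 1 (adjusted p = 0.061). Hoxa4, which is expressed behind the first arch, was at 1.19, 0.41, 0.74 and 0.54, against -0.46, -0.17, 0.08, -0.16 and -0.16 (0.89 ± 0.20, adjusted p = 0.0022). Of 28 surface epithelium genes none rose and 1 fell: Jup, the junction protein plakoglobin, which endothelium and mesenchyme also make, at 0.00, 0.13, 0.05 and 0.34 against 1.21 to 1.76 (-1.23 ± 0.38, adjusted p = 0.021), but not without E9.5 library 5 (-1.13, adjusted p = 0.059), E10.5 library 1 (-1.19, adjusted p = 0.064) or 3 (-1.21, adjusted p = 0.061). No erythroid (8), macrophage (14) or early neuron (16) gene was called, and the mean of the macrophage genes was 0.70 and 0.34 in E10.5 libraries 2 and 4, -0.01 and 0.08 in libraries 1 and 3, and -0.08 to 0.18 in E9.5 libraries. The part of other cell types in the stage difference was not tested beyond these counts.

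The maxillary arch, which forms the upper jaw, was captured at both stages, and 1707 genes were called between E10.5 and E9.5 there (8.56%), 335 higher (1.68%) and 1372 lower (6.88%), or 535 and 370 after quantile normalization. The 2 stage contrasts share no samples. The difference between them was itself tested, and 5 genes passed in limma, 0.0251% of all, with 919 at an unadjusted p under 0.05. Without E10.5 library 1, or without E10.5 maxillary arch library 1, none of the 19938 passed. Pax9 rose in the mandibular libraries (0.88) and was at -0.34 in the maxillary contrast (difference 1.22 ± 0.26, adjusted p = 0.0499). Cxcl14, a chemokine made in surface ectoderm among other tissues, was at -0.05 to 0.46 in the E10.5 libraries, with a stage difference of -0.80, and at 0.15 to 5.98 in E10.5 maxillary arch, with a stage difference there of 3.15 (difference -3.95 ± 0.85, adjusted p = 0.0499). That group also had 13 of 28 surface epithelium genes higher than at E9.5, with a list mean of up to 2.78. Endothelial genes fell there too (11 of 14), as did 7 of 21 cell cycle genes, and Lin28b (-2.01, adjusted p = 0.0096). For Hand2 the difference of contrasts was -1.22 ± 0.46 (adjusted p = 0.92), and nothing is read from it, since Hand2 prompted the question. The libraries labelled E10.5 maxillary arch were themselves mixed in their markers: Hand2 was at 0.12 to 2.13 there, against -0.87 to 0.86 in E9.5 maxillary arch, and Epcam at -1.44 to 3.59, against -1.23 to 0.52. Whether labels were exchanged among the E10.5 groups was not tested.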

How the data were processed

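RNA of 103 laser-captured samples was measured on Affymetrix whole-transcript mouse arrays. The authors deposited a linear ratio per probe set and sample. RMA and the build mm9 are named per the submitters' processing notes, without versions. How the ratio was formed is not given in the sources used here: tested on the values, the median over 21 samples is 1 for every probe set, and these include E10.5 library 2 and E9.5 library 2. The log2 of each deposited ratio was taken. Of 35557 probe sets 28856 had values, 21789 with 1 gene symbol, 1621 with several and 5446 with none in the platform annotation. The probe set with the highest mean stood for each of 999 genes with several. The smallest deposited ratio is 0.01, and no filter was set. Sample 1 of the E9.5 mandibular arch has labels that conflict and was left out.

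One limma fit (R 4.3.3, limma 3.58.1) held 102 samples in 22 groups (80 residual degrees of freedom), tested two-sided over 19938 genes. In data simulated for the stage comparison it recovered 63% of genes changed 2-fold and 88% of those changed 4-fold, and 4.43% of calls were unchanged genes. The simulation changed 200 genes, whereas the real stage comparison called 3483. These rates describe the simulated data only, and the share of unchanged genes among the real calls was not tested. The number of arrays limits the precision.

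Members and gene lists were chosen with earlier results of these data known, Hand2 and the epithelial genes among them. Named genes are the markers, per direction up to 10 called genes, by size of difference, whose groups do not overlap (without predicted genes, receptors of smell, small RNAs and pseudogenes), and up to 4 called members per list, or the 2 largest differences where none is called. Other comparisons name up to 4 called genes per direction. Dlx5, Gli1, Gsc, Hmga2, Krt8, Lhx8, Mki67, Myf5, Pitx1, Sox18, Sox9, Top2a, Twist1, Vegfa, Mir451a and Mir144 were chosen after their values were seen. Alternatives covered normalization, array weights, the prior, probe sets, samples, single libraries and the low tail of the arrays.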

Additional observations from a re-analysis of the deposited data

Results flagged for a closer look

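In 12 of 210 groups of values, 1 library lay far from the others of its group by Dixon's criterion, which chance meets in about 1 of 20 groups. In the E10.5 libraries, library 4 was highest for Cldn5 (2.76), Dusp6 (0.61) and Smo (0.04) and lowest for Foxc1 (0.1), and library 2 was lowest for Ldha (-1.44). In E9.5 mandibular arch, library 2 was highest for Bmpr1b (1.97), Krt14 (1.2) and Papolb (0.26) and lowest for Gas1 (-0.52) and Tbx1 (-0.32). Library 5 of that group was highest for Jup (1.76), and library 6 for Hand2 (4.22).

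For 5 genes the stage difference in the mandibular libraries differed from that in the maxillary arch by the test of the difference itself in limma. Papolb, a testis-type poly(A) polymerase, differed by 1.18 ± 0.22 (adjusted p = 0.018), and it was at 1.57, 0.02, 0.99 and 2.58 in the E10.5 libraries, against -0.09 to 0.26 in E9.5 libraries. The mandibular stage difference of Papolb (1.28) was not called with only the compared groups in the fit. Pax9 differed by 1.22, Cxcl14 by -3.95, Itga3 by -1.11 and Tll1 by -0.4, each with an adjusted p of 0.0499. Papolb lost its call without E10.5 library 1 (adjusted p = 0.07), E10.5 library 4 (adjusted p = 0.097) or E10.5 maxillary arch library 1 (adjusted p = 0.055), and the other 4 lost theirs without any one of the 4 E10.5 libraries.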

How the results depend on the processing

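The stage comparison called 3483 genes. It called 7397 with array weights, 981 with each array's 5th percentile in the fit (the covariate), 1325 with E10.5 libraries 1 and 3 averaged and 329 with both left out, and 1177 to 4158 when each of the 9 libraries was left out in turn; the last 3 settings have fewer libraries. Against E10.5 maxillary ectoderm 261 genes were called, 861 with weights, 678 with the covariate and 167 to 445 with 1 library left out. Against E9.5 epidermal ectoderm 129 were called, 236 after quantile normalization, 787 with weights, 305 without widely spread arrays, 300 with the covariate, 276 without libraries 1 and 3, and 81 to 151 with 1 library left out (81 without E10.5 library 4). Against E10.5 mandibular arch 27 were called, 2532 with weights, 57 without widely spread arrays, 10 with libraries 1 and 3 averaged, 54 without them, and 10 to 48 with 1 library left out. The maxillary stage contrast called 1707 genes, 905 after quantile normalization, 4916 with weights, 1029 without widely spread arrays and 750 with the covariate. The difference of stage contrasts called 5, 3 after quantile normalization, 91 with weights, 2 with a trended robust prior, 3 with the covariate, 1 with libraries 1 and 3 averaged, 36 without them, and 0 to 22 with 1 library left out. Beyond the number of libraries, the cause of these moves was not tested. The settings that average or leave out libraries 1 and 3 were chosen after seeing the data.

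Of the 88 named genes called in the stage comparison none changed direction under any setting. Calls held for 72 after quantile normalization, 86 with weights, 45 with the covariate and 60 with only the 2 compared groups in the fit. They held for 52 with libraries 1 and 3 averaged, 23 without them, and 51 to 86 with 1 library left out. Same-numbered libraries of the 2 groups did not deviate together (correlations of 0.041, 0.028 and -0.082), so the numbers do not pair them. A further setting fitted only the compared groups, with a term for each library number. It left far fewer residual degrees of freedom than the 80 of the main fit, so it had little power to call genes. Nothing is read from it about pairing. There the stage comparison, the comparison with E10.5 mandibular arch and the difference of contrasts called 0 genes. The comparison with E10.5 maxillary ectoderm called 16 and that with E9.5 epidermal ectoderm 2.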

Other observations

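Transcript classes differed in their calls between the E10.5 libraries and E9.5 mandibular arch. Of 18562 protein-coding genes 846 were higher (4.56%) and 2474 lower (13.3%), of 726 long non-coding RNAs 59 were higher (8.13%) and 9 lower (1.24%), and of 297 microRNA genes 31 were higher (10.4%) and 21 lower (7.07%). These shares are a description of limma's calls, and the difference between classes was not tested.

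The E9.5 sample whose labels name both mandibular arch and epidermal ectoderm, which entered no comparison, had log2 ratios of 3.01 for Msc, 3.58 for Emcn, 1.01 for Lin28b and 1.27 for Mcm3. Epithelial genes were high in it too, with Epcam at 2.13, Cldn7 at 3.66 and Krt8 at 2.66. Barx1 was at 4.36 and Prrx1 at 2.14, but Hand2 was at 0.41 and Pecam1 at -0.01. Which of its labels holds was not tested.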
